A study of Mus musculus with 6 samples.

Results

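Integrins and laminins were followed as 35 of the 36699 gene rows in the authors' Cuffdiff table, taken by symbol: 17 integrin alpha subunits (Itga), 8 integrin beta subunits (Itgb) and 10 laminin chains (Lama, Lamb and Lamc). Itga10 had no row of its own. The rule reads symbols only, though the family was picked with earlier results of these data known. Of the 35 rows, 27 were tested by the authors, 7 had the status NOTEST with values up to 0.058 FPKM, and Itga3 had the status FAIL.

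Laminins are the trimeric glycoproteins from which basement membranes are built, each made of 1 alpha, 1 beta and 1 gamma chain. Integrins are cell surface receptors of 1 alpha and 1 beta subunit that bind laminin, fibronectin, collagen or other cells and link them to the actin cytoskeleton. In embryoid bodies, as in the early embryo, the primitive endoderm lays down a laminin-rich basement membrane to which the epiblast attaches, and cells that enter the primitive streak leave this membrane.

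The cells were mouse A2Lox.cre embryonic stem (ES) cells, a line made for doxycycline-controlled expression of a transgene, here Sp5 with a Flag tag (Sp5 is a transcription factor of the zinc-finger class that binds GC-rich DNA). All were grown on primary embryonic fibroblasts, freed of these, and cultured in suspension as embryoid bodies until day 3. The minus group (3 libraries, replicates 2, 3 and 4) had no doxycycline, and the plus group (3 libraries, replicates 1, 3 and 4) had it from day 2 for 24 hours. The comparison asked which genes Sp5 regulates during differentiation. Cells without the transgene but with the drug were not analysed here, so drug and transgene differed together between the groups.

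Levels are FPKM, fragment counts scaled for transcript length and library size (how the libraries were scaled is not stated). There is 1 deposited value for each group and none for single libraries. No SD can therefore be given, and depth is unknown. The standard error (SE) beside each log2 fold change is the one implied by the deposited test statistic, read as the log ratio divided by its SE. A gene is said to have risen or fallen only where its q was below 0.05 in the table the authors deposited. The labels do not say whether the libraries of a group came from separate cultures, so this error may hold technical spread only. Sp5 itself stood at 0.769 FPKM in the minus group and 126 FPKM in the plus group, in the direction of the labels. Over the whole table, 23.2% of 18537 tested rows were called, 10.5% as higher and 12.7% as lower.

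Lower levels were called for 4 of the 27 tested members and higher levels for 2, which left 21 without a call. The called share of 22.2% was close to the 23.2% of all tested rows, so the number of calls does not set the members apart. Among the 11 tested members that reached 1 FPKM in a group, 4 fell and none rose (Lama1, Lamc1, Itga6 and Itga5), where 28.3% of all tested rows at that level were called, 16.8% as lower and 11.5% as higher. The other calls, Lama4 and Itga8, stayed under 1 FPKM in both groups, where 16 members were tested. Over the whole table, 2071 of the 2357 rows called lower reached 1 FPKM, and 1414 of the 1949 called higher. Whether the split by level is particular to the members was not tested. With a minimum fold of 1.5, 2 members fell (5.21% of all tested rows did), and the 2 that rose did so more than 2-fold (3.53% of all tested rows did). The median log2 fold change of the tested members was -0.13, beside -0.03 for all tested rows. At 1 FPKM or more it was -0.24 over 11 members and -0.04 over all rows. As this was bulk RNA, fewer cells of a type and less RNA per cell cannot be told apart in these values.

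**Figure D1:**
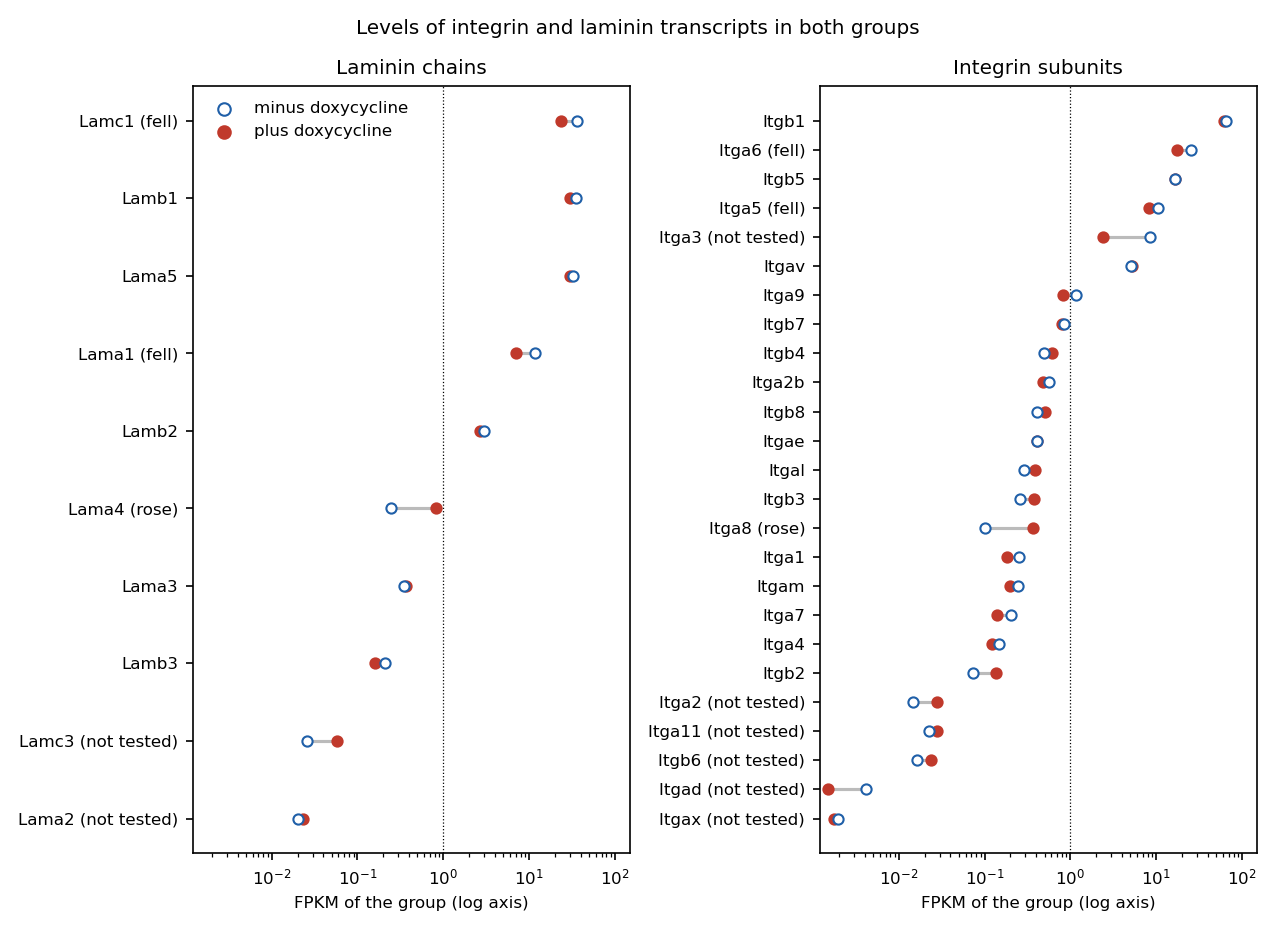
FPKM of the 10 laminin rows (left) and 25 integrin rows (right) in the minus group (open circles) and the plus group (filled circles), on a log axis with a dotted line at 1 FPKM; 1 value stands for each group, and Itgad, listed at 0 in the plus group, is drawn at the left edge. The rows that fell at 1 FPKM or more are Lamc1, Lama1, Itga6 and Itga5, and the 2 rows that rose, Lama4 and Itga8, lie left of the line.

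Among laminin alpha chains, Lama1, a chain of early embryonic basement membranes, fell while the most abundant chain, Lama5, was not called. Lama1 stood at 11.8 FPKM in the minus group and 6.98 FPKM in the plus group, a 1.69-fold lower level (log2 fold change -0.76, SE 0.064, with a q given as 0 in the authors' deposited table). Its row covers chromosome 17, positions 68046605 to 68171985 of mm9. Lama5, an alpha chain of many basement membranes, stood at 32.8 and 30.1 FPKM. Its log2 fold change of -0.13 had a 95% interval from -0.49 to 0.23, which leaves room for a level as much as 1.40 times lower. Lama5 thus exceeded Lama1 2.79 times in level without doxycycline and 4.31 times with it. Lama1 made up 26.0% of the summed alpha chain level in the minus group and 18.2% in the plus group, and Lama5 72.6% and 78.6%.

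The other alpha chains were low. Lama4, a chain of vessel walls and mesenchyme, rose from 0.247 to 0.822 FPKM (3.33-fold, log2 fold change 1.74, SE 0.54, q = 0.0082 in the authors' deposited table; chromosome 10, 38685321 to 38829994). This was the least precise of the 6 calls, with a 95% interval of the fold from 1.60 to 6.96. Lama3, the chain of skin-type basement membranes, stood at 0.353 and 0.366 FPKM and was not called. Lama2, the chain of muscle basement membrane, was listed at 0.0202 and 0.0233 FPKM and was not tested.

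No beta chain was called. Lamb1, the beta chain of most embryonic laminins, stood at 35.6 FPKM in the minus group and 30.1 FPKM in the plus group (log2 fold change -0.24, SE 0.12, q = 0.129 in the authors' deposited table). Lamb2, found at neuromuscular and kidney basement membranes, stood at 3.01 and 2.66 FPKM (log2 fold change -0.17, SE 0.088, q = 0.156 in the same deposited table of the authors). In both genes the 95% interval reached almost to 0 from below, from -0.47 to -0.01 for Lamb1, before any adjustment for the number of rows. Lamb3, a skin-type chain, stood at 0.208 and 0.162 FPKM and was not called.

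Lamc1, the gamma chain shared by most laminins, fell from 36.1 to 23.9 FPKM (1.51-fold lower, log2 fold change -0.60, SE 0.099, q = 2.98e-08 in the authors' deposited table; chromosome 1, 155066052 to 155179916). The 95% interval of its log2 fold change ran from -0.79 to -0.40. Lamc3 was listed at 0.0258 and 0.058 FPKM and was not tested. Lamb1 and Lamc1 were near parity in level without doxycycline, with a ratio of 0.987, and stood at 1.26 with it. Whether Lamb1 and Lamc1 differed in their response was not tested.

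**Figure D2:**
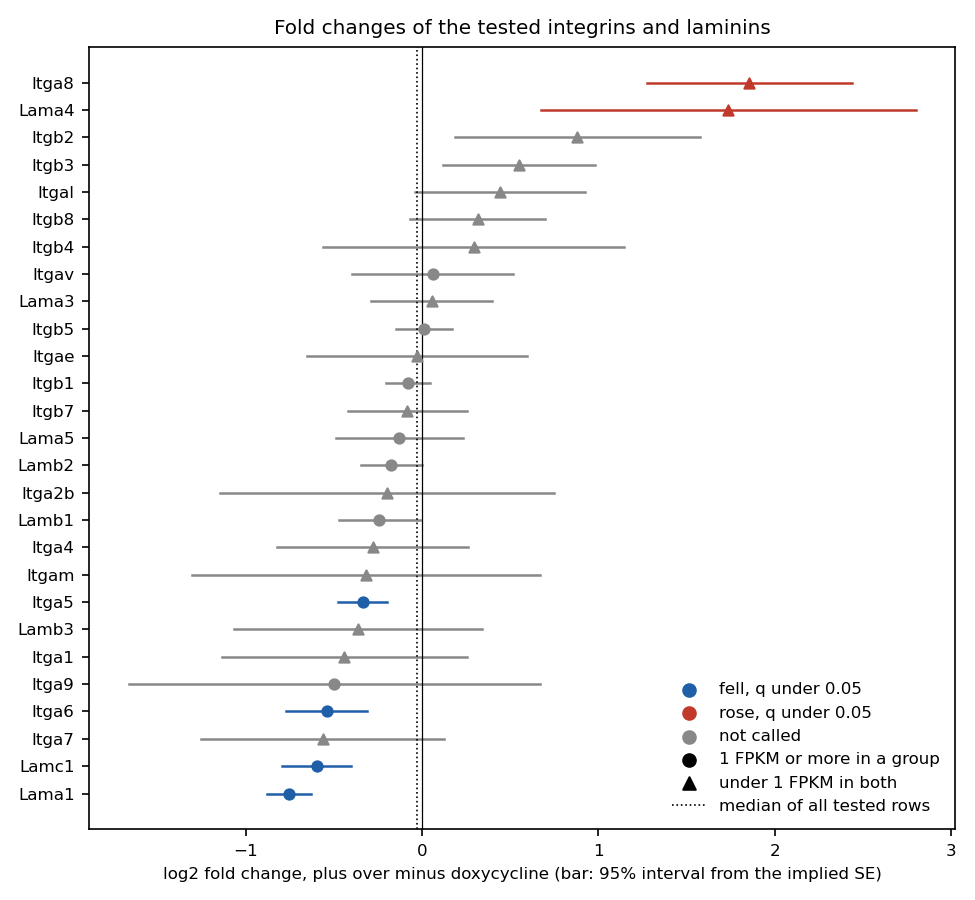
Log2 fold change (plus over minus doxycycline) of the 27 tested members, ordered by size, with 95% intervals from the SE implied by the authors' statistic; circles mark genes at 1 FPKM or more in a group, triangles those under it, and the dotted line the median of all tested rows (-0.03). Lama1, Lamc1, Itga6 and Itga5 (blue) lie below 0 and Lama4 and Itga8 (red) above it, while the intervals of low genes such as Itgam span both sides.

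Among integrin subunits, Itgb1 was the most abundant and was not called. Itgb1, the partner of most alpha subunits, stood at 65.8 and 62.3 FPKM in the minus and plus groups (log2 fold change -0.08, SE 0.063, q = 0.456 in the authors' deposited table). Its 95% interval from -0.20 to 0.04 leaves room for a level at most 1.15 times lower. Itgb5, a partner of the alphaV subunit, stood at 16.4 and 16.6 FPKM (log2 fold change 0.01, SE 0.08). These were the only beta subunits at 1 FPKM or more, and they gave 78.0% and 19.5% of the summed beta level in the minus group and 76.6% and 20.4% in the plus group.

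The main laminin-binding alpha subunit fell. Itga6, which pairs with beta1 or beta4, went from 25.4 to 17.5 FPKM (1.45-fold lower, log2 fold change -0.54, SE 0.12, q = 4.64e-05 in the authors' deposited table; chromosome 2, 71583673 to 71696473). It lies 1.27 Mb from Sp5 on the same chromosome, and the nearest tested rows on either side of it, Gm13647 and Pdk1, were not called. Itga3, the other laminin-binding subunit of epithelia, was listed at 8.43 FPKM in the minus group and 2.40 FPKM in the plus group. That was the widest ratio of group values among the members above 1 FPKM, but the row has the status FAIL, which Cuffdiff gives when its calculation does not complete, so it has no test and no error. Itga7, the laminin-binding subunit of muscle, stood at 0.204 and 0.138 FPKM, and Itgb4, the beta subunit of hemidesmosomes, at 0.496 and 0.607 FPKM; neither was called.

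Of the subunits that bind the RGD motif of fibronectin and related proteins, 1 fell, 1 rose and 2 were not called. Itga5, whose pair with beta1 is the classical fibronectin receptor, fell from 10.5 to 8.27 FPKM (1.26-fold, log2 fold change -0.34, SE 0.071, q = 2.12e-05 in the authors' deposited table; chromosome 15, 103174720 to 103197194). Itgav, which pairs with several beta subunits, stood at 5.09 and 5.30 FPKM (log2 fold change 0.06, SE 0.23) and was not called. Itga8, a beta1 partner known for its part in kidney development, rose from 0.101 to 0.365 FPKM (3.62-fold, log2 fold change 1.86, SE 0.30, q = 7.64e-09 in the authors' deposited table; chromosome 2, 12028259 to 12232927). This was the largest fold among the called members when no pseudocount was added, from a level far below that of Itga5. With a pseudocount of 1 FPKM its log2 fold change was 0.31, below the 0.55 of Lama4 and smaller in size than the -0.68 of Lama1. Itga2b, the platelet subunit, stood at 0.556 and 0.485 FPKM and was not called.

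RefSeq promoters (build GRCm38.p6, not the mm9 of the gene rows) were at hand for 22 of the 35 members. Those of Itga5, the called fibronectin receptor subunit, and Itga8, the subunit that rose, are printed beside 3 abundant members that were not called, so that members of each kind can be compared. Each is the 250 bases before the start of transcription, 5′ to 3′ on the gene's strand, with capitals marking GC boxes (GGGCGG on either strand, seen as CCGCCC on the other), the motif known to bind the Sp family.
Itga5 (chr15:103366792-103367041, minus strand): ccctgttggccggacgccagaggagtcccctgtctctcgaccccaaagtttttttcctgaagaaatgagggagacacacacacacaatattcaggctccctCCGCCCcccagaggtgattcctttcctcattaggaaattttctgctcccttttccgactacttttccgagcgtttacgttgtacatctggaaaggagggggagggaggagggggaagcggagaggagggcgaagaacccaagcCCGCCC
Itga8 (chr2:12301945-12302194, minus strand): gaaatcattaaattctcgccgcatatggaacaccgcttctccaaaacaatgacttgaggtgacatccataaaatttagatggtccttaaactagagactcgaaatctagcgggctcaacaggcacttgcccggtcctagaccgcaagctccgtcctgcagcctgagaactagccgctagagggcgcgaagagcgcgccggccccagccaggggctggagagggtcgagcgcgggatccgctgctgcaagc
Itgb1 (chr8:128685404-128685653, plus strand): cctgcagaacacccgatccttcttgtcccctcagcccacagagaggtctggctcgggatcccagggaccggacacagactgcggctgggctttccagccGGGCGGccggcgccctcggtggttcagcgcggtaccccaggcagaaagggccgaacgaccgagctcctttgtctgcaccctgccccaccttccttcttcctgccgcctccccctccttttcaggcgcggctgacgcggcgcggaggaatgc
Lama5 (chr2:180225860-180226109, minus strand): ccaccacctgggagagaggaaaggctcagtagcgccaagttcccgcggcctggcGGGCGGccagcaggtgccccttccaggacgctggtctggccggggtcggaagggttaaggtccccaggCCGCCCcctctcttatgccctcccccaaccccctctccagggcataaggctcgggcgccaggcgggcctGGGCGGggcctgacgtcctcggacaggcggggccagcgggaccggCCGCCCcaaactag
Lamb1 (chr12:31265043-31265292, plus strand): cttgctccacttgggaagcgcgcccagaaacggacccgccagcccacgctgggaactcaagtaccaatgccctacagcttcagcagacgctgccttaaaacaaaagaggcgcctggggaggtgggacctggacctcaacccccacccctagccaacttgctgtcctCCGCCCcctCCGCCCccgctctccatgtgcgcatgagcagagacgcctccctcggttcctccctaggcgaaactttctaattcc
The Itga5 window holds 2 GC boxes and that of Itga8 none, while the uncalled genes Lama5, Lamb1 and Itgb1 hold 4, 2 and 1. Of the 22 members, 8 had a GC box in such a window (36.4%), beside 35.4% of 27025 genes in the same table. The CACCC box, CCNCNCCC on either strand, which can overlap a GC box, was found in 15 of the 22 (68.2%) and in 48.5% of all genes. It occurred 2 times in Itga5 and 0 times in Itga8, and 3, 3 and 1 times in Lama5, Lamb1 and Itgb1. A match in these letters describes the window and is not evidence of binding. The called members Lama1, Lama4, Lamc1 and Itga6 had no entry.

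The other integrin subunits were low or not called. Itga9, a receptor subunit for tenascin and other matrix proteins, stood at 1.15 and 0.814 FPKM and was not called, with an interval of the log2 fold change from -1.66 to 0.67. The related Itga4 stood at 0.149 and 0.123 FPKM and was not called. Of the collagen-binding subunits, Itga1 stood at 0.249 and 0.183 FPKM, Itga2 at 0.0145 and 0.0282 FPKM and Itga11 at 0.0225 and 0.028 FPKM, the latter 2 without a test. No collagen-binding subunit with a row of its own thus reached 1 FPKM.

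The leukocyte subunits Itgal, Itgam, Itgae, Itgax and Itgad lay between 0 and 0.413 FPKM. Of the 3 that were tested none was called, beside 23.2% of all tested rows. Itgae shares its locus with Gsg2 (8.63 and 7.43 FPKM) and Itga1 with Pelo (13.7 and 13.8 FPKM), as does Itga4 with the row of Cerkl and Neurod1 (1.58 and 1.88 FPKM), so that reads of the stronger gene may enter these rows. Blood markers were low as well, with 1 fall (Hba-x, under 1 FPKM) among 5 tested, where 12.7% of all tested rows fell. The summed level of all 8 was 1.87 FPKM in the minus group and 1.88 FPKM in the plus group, and Ptprc, the pan-leukocyte gene, was listed at 0.0216 and 0.00526 FPKM. The remaining beta subunits lay under 1 FPKM too. Itgb3, the platelet and osteoclast subunit, stood at 0.259 and 0.379 FPKM (q = 0.0521 in the authors' deposited table) and Itgb2, the leukocyte subunit, at 0.073 and 0.135 FPKM (q = 0.0546 in the authors' deposited table). Both lay just outside the threshold, on the side of higher values. Itgb7 (0.842 and 0.795 FPKM) and Itgb8 (0.41 and 0.51 FPKM) were not called, and Itgb6 was not tested.

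Summed over the chains, laminin alpha and beta transcripts had nearly the same ratio of plus to minus, and Lamc1 a lower one. The alpha chains summed to 45.2 FPKM in the minus group and 38.2 FPKM in the plus group (ratio 0.845) and the beta chains to 38.9 and 32.9 FPKM (0.847). Lamc1 alone had a ratio of 0.661. Its level was thus below both sums in both groups, and the distance was wider with doxycycline. Among integrins, the 10 alpha partners of beta1 other than Itga3 summed to 42.9 and 32.7 FPKM (ratio 0.764), and to 51.3 and 35.1 FPKM with Itga3, whereas the beta subunits summed to 84.3 and 81.3 FPKM (0.964). Itga6 gave 59.3% of the alpha sum without Itga3 in the minus group and 53.4% in the plus group, and Itgav 11.9% and 16.2%. These sums are descriptions of transcript level and carry no test.

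**Figure D3:**
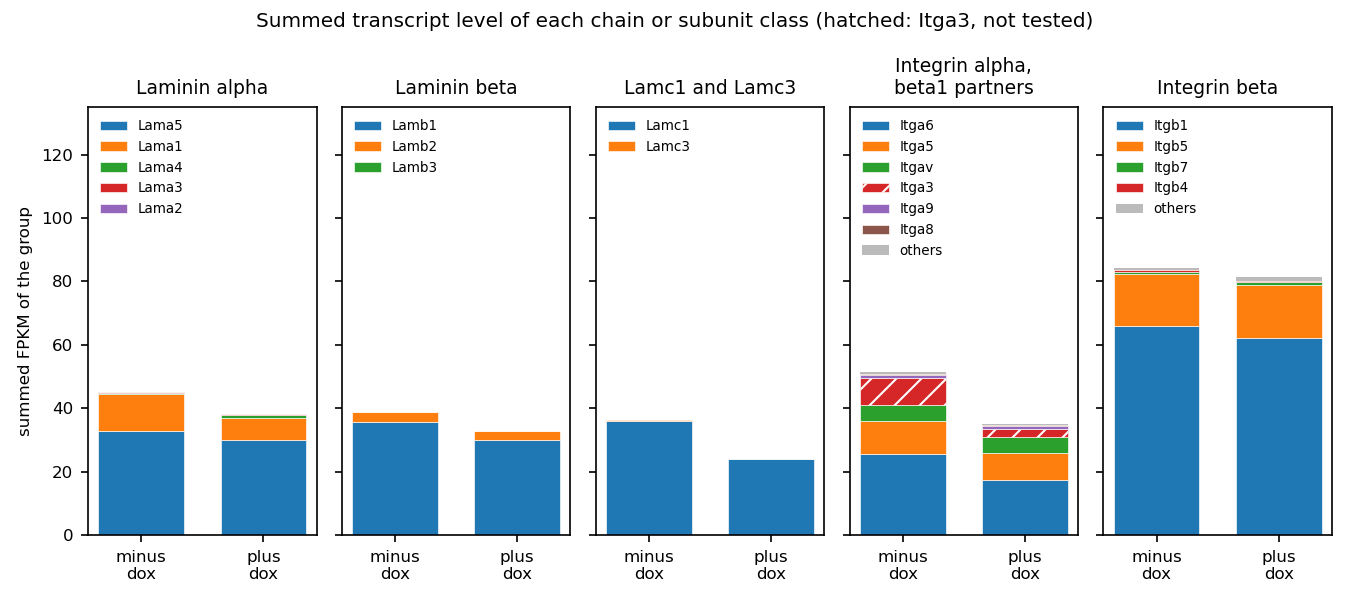
Summed FPKM of the laminin alpha chains, of the beta chains, of Lamc1 and Lamc3, of the integrin alpha subunits that pair with beta1, and of the integrin beta subunits in the minus and plus groups, with 1 colour for each gene and Itga3, which was not tested, hatched. The bar of Lamc1 and Lamc3 goes from 36.1 to 23.9 FPKM, nearly all of it Lamc1, while the beta subunit bar goes from 84.3 to 81.3 FPKM.

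Partners of laminin in the basement membrane moved in both directions. Of 21 tested, 6 fell and 2 rose (23.2% of all tested rows were called), with a median log2 fold change of 0.03. At 1 FPKM or more, 5 of 12 fell and 2 rose, and the median was -0.21. Of all tested rows at that level, 16.8% fell and 11.5% rose, with a median of -0.04. Hspg2 (perlecan), the heparan sulfate proteoglycan of basement membranes, fell from 19.6 to 12.3 FPKM. Nid2, a nidogen that links laminin to collagen IV, fell from 26.4 to 19.3 FPKM, while Nid1 stood at 2.59 and 2.67 FPKM and was not called. Col18a1 fell from 43.0 to 34.7 FPKM and the collagen IV gene Col4a1 from 42.6 to 35.3 FPKM. Frem2, a matrix protein of embryonic epithelia, rose from 1.42 to 4.10 FPKM (2.89-fold), the widest change in this list at 1 FPKM or more.

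Among other ligands of integrins, 6 of 18 tested fell and 4 rose, where 12.7% of all tested rows fell and 10.5% rose. At 1 FPKM or more, 5 of 14 fell and 4 rose, where 16.8% of all tested rows fell and 11.5% rose. Tgfb1, whose latent form is bound by alphaV integrins, rose from 1.40 to 8.68 FPKM (6.19-fold), and Thbs2 (thrombospondin) from 0.865 to 1.495 FPKM. Thbs1, its paralog, fell from 3.07 to 1.43 FPKM, Cyr61, a matrix-associated ligand, from 14.7 to 9.15 FPKM, and Mfge8, an RGD-bearing secreted protein, from 10.1 to 6.42 FPKM. Fn1 (fibronectin), the ligand of the Itga5 receptor, was listed at 16.6 and 19.8 FPKM with status FAIL and was not tested. Of 8 tested receptors and linkers of laminin that are not integrins, 2 rose and 1 fell. All 8 reached 1 FPKM, a level at which 16.8% of all tested rows fell and 11.5% rose. Bcam, a laminin alpha5 receptor, rose from 20.6 to 29.2 FPKM and the linker Dst from 5.43 to 6.65 FPKM, while Cd151, a tetraspanin partner of laminin-binding integrins, fell from 35.1 to 30.1 FPKM. Dag1 (dystroglycan) stood at 15.1 and 13.8 FPKM and was not called.

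Inside the cell, 12 of 37 tested adaptors and signalling partners of integrins fell and 2 rose, with a median of -0.14. Git1, a scaffold of focal adhesions, fell from 18.5 to 9.63 FPKM (1.92-fold), Parvb (beta-parvin) from 5.34 to 3.14 FPKM and Bcar1 (p130Cas) from 28.2 to 18.2 FPKM. Fermt2 (kindlin-2), which activates integrins by binding the beta tail, fell from 26.0 to 16.9 FPKM and Vcl (vinculin) from 10.9 to 7.34 FPKM. Talin and focal adhesion kinase were not called: Tln1 stood at 11.9 and 9.37 FPKM (q = 0.547 in the authors' deposited table) and Ptk2 at 15.9 and 16.3 FPKM (q = 0.839 in the authors' deposited table). The called share of this list, 14 of 37, is to be set beside the 23.2% of all tested rows (12.7% lower, 10.5% higher). At 1 FPKM or more, 12 of 33 fell and 2 rose, where 16.8% of all tested rows at that level fell and 11.5% rose. The list was not tested against these shares.

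**Figure D4:**
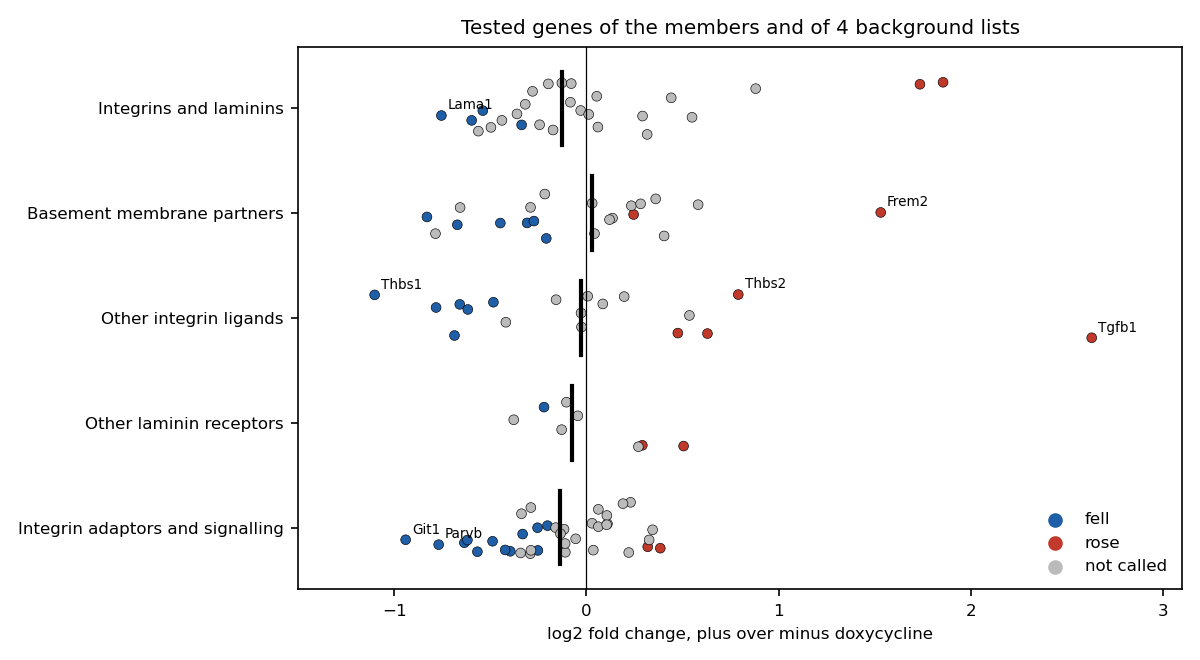
Log2 fold change of each tested gene among the integrins and laminins and in 4 lists of their ligands, receptors and adaptors; blue points fell, red points rose, grey points were not called, and the black bar is the median of the list. The points of the adaptor list that fell (12) outnumber those that rose (2), where 12.7% of all tested rows fell and 10.5% rose. Among the 4 lists Tgfb1 and Frem2 lie farthest to the right.

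Markers of other cells moved in both directions. Over all tested rows, 12.7% fell and 10.5% rose. Of 14 tested markers of primitive, visceral and parietal endoderm (Lamb1 left out), 8 fell and none rose, with a median of -0.33. The list's 15 rows summed to 495.7 FPKM in the minus group and 398.4 FPKM in the plus group, with no marker at 0. The largest parts of this sum were Sparc (207 and 179 FPKM) and Dab2 (85.2 and 56.6 FPKM). Dab2 had the status FAIL and was not tested. Gata6, a factor of primitive endoderm, fell from 4.43 to 2.76 FPKM and Afp from 10.5 to 6.57 FPKM, while Gata4 (12.5 and 10.98 FPKM) and Sox17 (3.13 and 3.13 FPKM) were not called. Sparc is in this list and in that of the basement membrane. Of 13 tested markers of the fibroblast feeder layer, 5 fell and 2 rose, and their summed level was 95.5 and 65.4 FPKM. Tagln and Acta2 made up most of that sum, while the fibroblast collagen gene Col1a1 rose from 1.11 to 4.43 FPKM and Lum was listed at 0.0267 and 0.0481 FPKM. The 8 primitive streak markers all rose, from a summed 38.4 to 201.5 FPKM. The largest part of the plus sum was the gene T, which went from 0.745 to 103 FPKM. The smallest fold was that of Fgf8, at 1.67. Of 5 tested epiblast and ES cell genes 1 rose and 2 fell. Nanog rose from 46.0 to 117 FPKM, while Utf1 fell from 314 to 119 FPKM and Fgf5 from 56.5 to 17.8 FPKM. Pou5f1 (999 and 1058 FPKM) and Sox2 (60.8 and 60.6 FPKM) were not called. Of 5 endothelial genes 1 rose and 3 fell. The part of these cell types in the changes of Lama1, Lamc1, Itga6 and Itga5 was not tested.

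The precision differed between abundant and low members. The implied SE of the log2 fold change had a median of 0.099 over the 11 tested members at 1 FPKM or more, with a range from 0.063 for Itgb1 to 0.60 for Itga9. Over the 16 tested members under 1 FPKM its median was 0.34. A fall of the size seen in Itga5 (log2 fold change -0.34) is about as large as this median SE. For the low members, the lack of a call thus does not show an unchanged level.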

How the data were processed

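Poly(A) RNA of 6 libraries was sequenced by the authors (TruSeq RNA libraries, no strand step mentioned, per the labels' protocols). The build was mm9 and the tools were Cuffdiff, Cufflinks 2.0.2, TopHat2 2.0.8, Picard and Bowtie, per the submitters' processing notes; for the annotation and library scaling, nothing is stated in the sources used here. The authors deposited 1 FPKM value per group, with p-values and q-values of their Cuffdiff test, and its log2 fold change and test statistic. No per-library value was used, so no refit, SD or depth can be given. The test planned for a table of group values, the authors' own, was used.

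The table was checked in pandas 2.3.3, scipy 1.17.1 and numpy 2.4.6 under Python 3.11.15. The authors' q-values differed by at most 1.79e-06 from Benjamini-Hochberg values computed over the 18537 tested rows. The deposited p-values equalled the two-sided normal tail of the statistic to within 2.84e-06. The implied SE is the size of the log2 ratio divided by that of the statistic. This reads the statistic as the log ratio over its SE, a formula that the sources used here do not state. Sizes were used because no tested row had a statistic of the same sign as its log2 ratio of plus over minus. Intervals are 95%, not adjusted for the number of rows. Folds are ratios of group values with no pseudocount. Starts were read as 0-based, since 10187 of 18284 genes then had the span that GENCODE vM21 gives them, against 288 otherwise, and are printed from 1. Scripts were tested on simulated data. Items matching the symbol rule that are not reported here are left out of the members' counts. Members and lists were chosen with earlier results of these data known. Every called member, and every member at 1 FPKM or more, is named; from each list, called genes at that level with the largest folds, at most 5, and others chosen after their values were seen (Nid1, Fn1, Dag1, Tln1, Ptk2 and the cell markers). Genes of the lists were 23, 23, 10 and 40; Plec had no row.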

Additional observations from a re-analysis of the deposited data

How the results depend on the processing

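The 6 called members kept their direction with a pseudocount of 1 FPKM and after centring, and a q threshold of 0.01 kept 6 calls (2 higher, 4 lower). With a minimum fold of 1.5, 2 fell; with 2, none fell and the total was 2. Among rows at 1 FPKM or more, also with p adjusted over these rows alone, 4 were called and 0 were higher, because Lama4 and Itga8 leave the set. Without rows that share a locus, 3 were called, 2 lower and 1 higher, because Lamc1, Itga6 and Itga8 leave it; the other rows at their loci reached at most 0.137 FPKM. In the lists, a minimum fold of 1.5 left 1 higher and 2 lower basement membrane partners. It left 3 higher and 5 lower among the other integrin ligands, 0 and 0 laminin receptors, and 0 and 4 adaptors. Of all tested rows, 5.21% were called lower at this fold. The median over the tested members was -0.06 with a pseudocount of 1 FPKM, -0.13 with 0.1 FPKM and -0.08 when centred on all tested rows at 1 FPKM or more, a shift of 0.04. With a pseudocount of 1 FPKM the log2 change of Itga8 was 0.31, of Lama4 0.55 and of Lama1 -0.68. No paired analysis was possible because the table holds 1 value per group, and for the same reason no library could be left out. Depth, and so any floor of detection, is unknown.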

Other observations

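Neighbouring rows of the called members, examined after their values were seen, add values that belong to no comparison above. Arhgap28, which lies 20.1 kb from Lama1, fell from 3.08 to 1.44 FPKM (log2 fold change -1.10), a larger change than that of Lama1 itself. Zfp385a, 4.203 kb from Itga5, fell from 9.59 to 4.91 FPKM (log2 fold change -0.96). Fam188a, 36.0 kb from Itga8, fell from 19.8 to 15.3 FPKM (q = 0.0271 in the authors' deposited table) while Itga8 rose. The nearest tested rows beside Lama4 and Itga6 were not called. Nor were Ptprm beside Lama1, E330020D12Rik beside Lamc1, Gtsf1 beside Itga5 and Gm13310 beside Itga8. Over the whole table, 23.2% of tested rows were called. Whether neighbours changed together with the members was not tested.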
